A study of Mus musculus with 34 samples.

Results

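CD4+ spleen cells of C57BL/6J mice were compared with those of A/J, Balb/c, DBA/2J and 129X1/SvJ mice after stimulation. The comparison used the 4 C57BL/6J arrays and the 13 arrays of the other strains taken at T1, which are 17 of the 34 arrays in the series. All mice were females of 8 weeks, each strain is an inbred line with no transgene or deletion named in the labels, and the cells were taken from spleen with CD4 magnetic beads. At T1 the cells of every strain had received 10 ng/ml of the phorbol ester PMA together with 1 µM ionomycin for 4 h, whereas T0 cells of the same strains were left untreated. At each time C57BL/6J and A/J had 4 arrays, and Balb/c, DBA/2J and 129X1/SvJ had 3 each. The labels do not settle whether T0 cells were also cultured. Replicates are samples of mice of 1 inbred line, so the p-values below measure the spread between such samples.

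PMA activates protein kinase C and ionomycin lets calcium into the cell, and together they switch on the pathways below the T cell receptor without binding it. In helper T cells these pathways converge on the transcription factors NFAT, AP-1 and NF-kappaB, which within hours raise immediate early genes, cytokine genes such as Il2 and Ifng, and surface receptors such as CD25 and CD69. C57BL/6J is the strain of the mouse reference genome, and inbred strains carry fixed sequence differences from it, among them the haplotype of the major histocompatibility complex (MHC) and copies of interferon-inducible gene families.

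The values are log2 intensities after RMA, which sets each array on a common distribution, so every difference is relative to the other genes of the array. The array medians ran from 5.28 to 5.39, and correlations between T1 arrays from 0.937 to 0.992 over 136 pairs. Defining CD4 T cell markers were present: the mean of the 12 markers measured was 8.84 to 8.97 in C57BL/6J T1 arrays, against 8.39 to 9.22 in T1 arrays of the other strains. In a bulk sample, fewer cells of a type and less RNA per cell cannot be told apart. A base difference under a probe and a difference in transcript level also cannot be told apart here, since probe sequences were not used.

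The array labelled Balb/c T1 replicate 2 went against its label in part of the genes that separate the strains. In 62 genes, the C57BL/6J arrays averaged at least 1 log2 unit away from the other Balb/c arrays at both times, in the same direction and without overlap. That array lay nearer to C57BL/6J in 56 of these 62 genes and nearer to Balb/c in 6. Trim12a read 7.24 on it, against a mean of 3.81 on the other 2 Balb/c arrays and 6.69 to 7.15 on the C57BL/6J arrays. The MHC gene H2-Ea, in contrast, read 10.24 on it, close to the other Balb/c arrays (mean 11.38) and far from C57BL/6J (4.42 to 5.16). The T0 array with the same number lay nearer to C57BL/6J in 23 of the 62 genes and nearer to Balb/c in 39. Of the 56 genes, 34 were nearer to C57BL/6J at T1 only and 22 at both times. The 22 include all 4 listed erythroid markers among the 62 (Slc4a1, Epb42, Ermap and Rhd), which lay past the C57BL/6J mean on the T1 array. Erythroid markers averaged 6.405 on the T1 array, against 6.61 to 7.92 in C57BL/6J and 8.21 to 8.55 on the other 2 Balb/c T1 arrays. On the T0 array they averaged 6.57, against 6.14 to 7.69 in C57BL/6J and 7.68 to 8.35 on the other Balb/c T0 arrays. The part of erythroid RNA in the position of either array was not tested. The array correlated on average at 0.962 with C57BL/6J T1 arrays, at 0.944 with the other Balb/c T1 arrays and at 0.958 with DBA/2J T1 arrays. Results are therefore given with it (17 arrays) and without it (16 arrays).

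**Figure D1:**
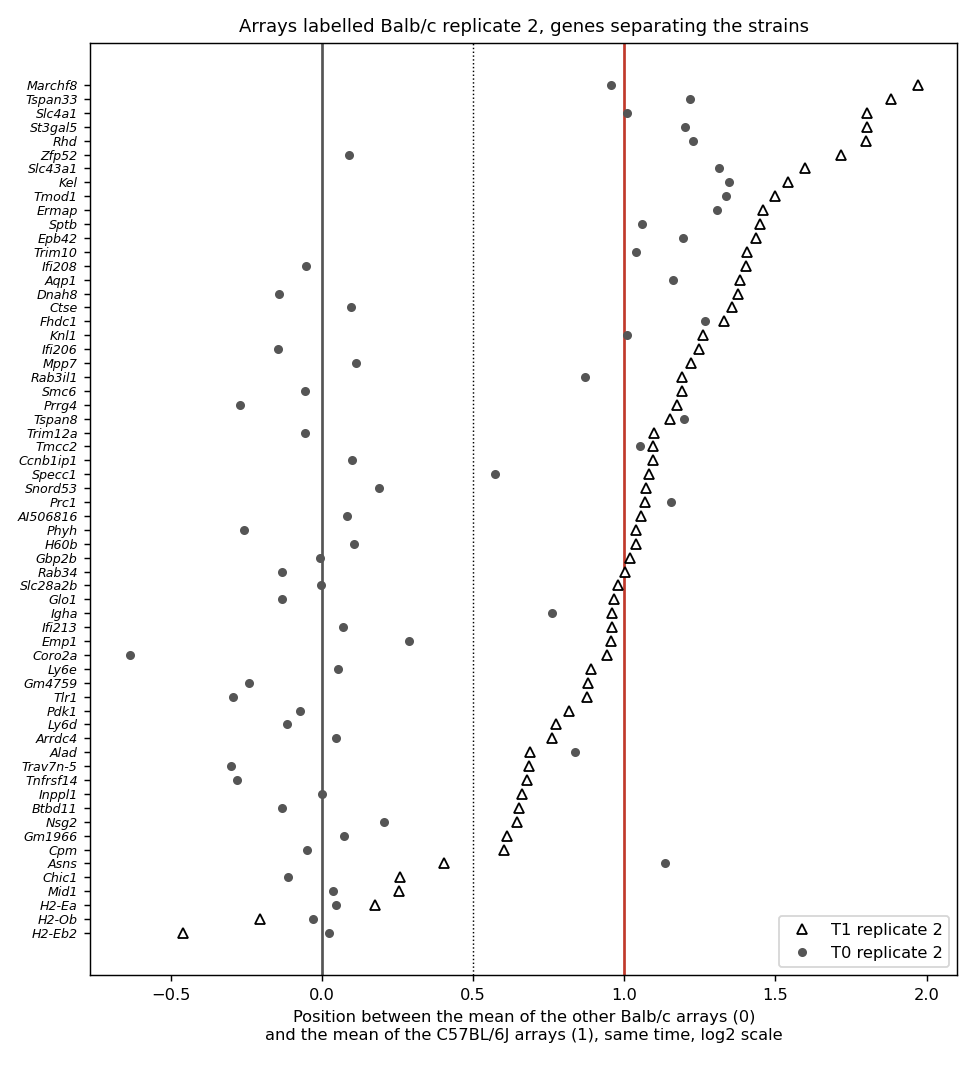
Position of the 2 arrays labelled Balb/c replicate 2 for the 62 genes that separate the strains (rows), on a scale where 0 is the mean of the other Balb/c arrays and 1 the mean of the C57BL/6J arrays of the same time. The T1 array (open triangles) lies past the midpoint, on the C57BL/6J side, in 56 genes, and the T0 array (grey points) in 23.

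Which transcripts set stimulated C57BL/6J cells apart was asked with a contrast of C57BL/6J minus the mean of the 4 other strain means in limma. A gene was called at a Benjamini-Hochberg adjusted p below 0.05 over 10937 genes. With 17 arrays, 703 genes were called (6.43%), of which 417 were higher (3.81%) and 286 lower (2.61%) in C57BL/6J. With 16 arrays, 1188 were called (10.9%), 615 higher (5.62%) and 573 lower (5.24%), and all 703 genes of the first fit were among them. Most differences were small: the median size over called genes was 0.46 log2 units with 17 arrays and 0.43 with 16, beside a median standard error of 0.10 over all genes. Only 25 genes were higher and 16 lower by 1 log2 unit or more with 17 arrays, and 32 and 30 with 16. The C57BL/6J mean was the highest or the lowest of the 5 strain means in 90.9% of the called genes, against 36.6% of all genes tested. The contrast itself favours such genes, so this share describes the calls and is no separate result. The count depended on single C57BL/6J arrays: it was 387, 411 and 468 without replicates 2, 3 and 4. For scale, the same contrast run for other strains called 1085 genes for A/J, 66 for Balb/c, 745 for DBA/2J and 763 for 129X1/SvJ with 17 arrays. With 16 arrays these counts were 1362, 501, 1398 and 1194. In 124 called genes (1.13%) the C57BL/6J values did not overlap those of any other T1 array, 82 of them higher (0.75%) and 42 lower (0.384%). With 16 arrays that count was 251 (2.29%), 168 higher (1.54%) and 83 lower (0.759%).

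Among genes higher in C57BL/6J, the largest difference in array signal was that of Trim12a, a mouse relative of TRIM5, which in primates restricts retroviruses. It read 7.15, 6.69, 6.96 and 6.92 in C57BL/6J arrays, against a lowest, median and highest value of 3.30, 3.54 and 3.83 over 12 arrays of the other strains. The C57BL/6J values thus lay above all of these, with only the array labelled Balb/c T1 replicate 2 as high. The difference was 3.33 ± 0.09 (SE, adjusted p = 6.64e-14) with 16 arrays and 3.04 ± 0.39 (adjusted p = 0.000146) with 17. The other strain means lay below 5.33, the median of all T1 values, which 1 strain mean had to reach for a gene to be tested. Trim12a was thus tested only through its C57BL/6J mean. The other strains were dim, and background calls were not used here. The size is therefore one of array signals rather than a measured ratio of transcripts, and no fold is given for this or other genes with such a side.

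Trav7n-5, a variable segment of the T cell receptor alpha locus, read 6.17, 5.87, 5.84 and 5.21 in C57BL/6J arrays, against 2.61, 3.60 and 5.11 (lowest, median, highest) over the 13 others. The groups did not overlap, and the difference was 2.29 ± 0.22 (adjusted p = 7.76e-06). All 13 other values lay below 5.33, so Trav7n-5 was likewise tested only through its C57BL/6J mean. The filter itself thus favoured an excess in C57BL/6J. A pair of neighbouring genes for concentrative nucleoside transporters moved together. Slc28a2b read 7.02, 6.96, 7.09 and 7.19, against 4.63, 5.04 and 5.37 over the 12 other arrays, a difference of 2.02 ± 0.09 (adjusted p = 1.07e-10) with 16 arrays and 1.87 ± 0.22 (adjusted p = 8.34e-05) with 17. Slc28a2 read 6.84, 6.97, 7.17 and 7.16, against 5.17, 5.76 and 6.599 over all 13, a 2.42-fold difference. Probes of such close relatives may share signal.

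Several enzymes followed. Pde3b, a phosphodiesterase that breaks down cyclic AMP, read 8.44, 8.94, 8.35 and 8.60 in C57BL/6J, against 6.72, 7.11 and 8.13 in the other strains. It was 2.53-fold higher (log2 difference 1.34 ± 0.13, adjusted p = 1.72e-05), and its difference was larger at T1 than at T0, where it was 0.56. Cpm, a membrane carboxypeptidase that trims basic residues from peptides, read 6.43, 6.57, 6.98 and 6.47, against 4.94, 5.19 and 6.02. Its groups did not overlap, with a difference of 1.38 ± 0.14 (adjusted p = 2.04e-05). Pdk1, the kinase that restrains pyruvate dehydrogenase, was 2.29-fold higher (adjusted p = 0.000188), at 7.16 to 7.44 in C57BL/6J and 5.16 to 7.09 in the others.

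The remaining genes with the largest non-overlapping excess in C57BL/6J had differences of 1.10 to 0.76. They were Arhgap29 (1.10), Ramp3 (0.98), which partners the calcitonin receptor-like receptor, Trim13 (0.96), Btbd11 (0.91), Fnbp1l (0.86), Hpcal1 (0.84), Qser1 (0.82), Fancc (0.80), of the Fanconi anaemia DNA repair pathway, and Rnf144a (0.76). With 16 arrays, Snord53 (1.55), Zfp52 (1.303) and Zfp948 (1.15) also separated the groups, though with 17 arrays the Zfp52 call was lost without C57BL/6J T1 replicate 1, 2 or 4. Zfp52 and Zfp948 are adjacent zinc finger genes.

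**Figure D2:**
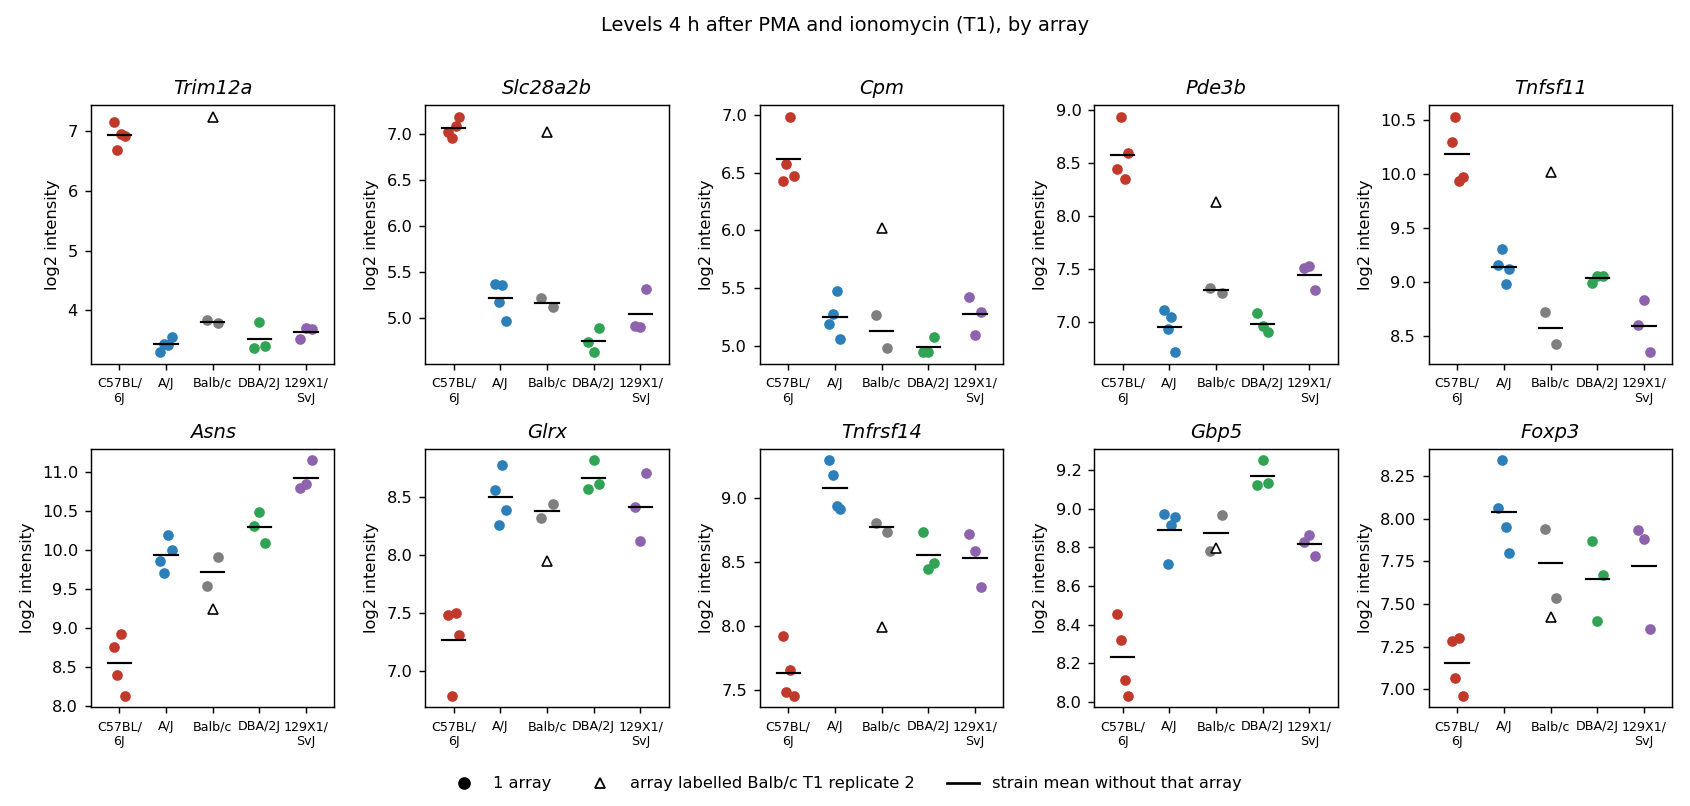
Log2 intensity of 10 genes at T1, with each point 1 array and each bar the strain mean. The array labelled Balb/c T1 replicate 2 is an open triangle and is not in the mean. For Trim12a and Slc28a2b that triangle lies at the C57BL/6J level, and for Asns, Glrx and Gbp5 the C57BL/6J points lie below every other point.

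With 17 arrays, Asns had the largest deficit among genes whose groups did not overlap, while with 16 that of Ccnb1ip1, given below, was larger. It encodes asparagine synthetase and is a classical target of the amino acid stress response. Asns read 8.76, 8.40, 8.93 and 8.14 in C57BL/6J, against 9.25, 10.10 and 11.15 in the other strains. It was 3.10-fold lower (log2 difference -1.63 ± 0.14, adjusted p = 2.94e-06), and at T0 it was lower by a similar amount (-1.48, adjusted p = 0.00387). The strains did not share 1 level: the means were 9.73 for the other 2 Balb/c arrays, 9.95 for A/J, 10.30 for DBA/2J and 10.93 for 129X1/SvJ. The start of the gene in the reference, which is the C57BL/6J sequence, is shown because the gene is a textbook case of control through its promoter. The bases are chr6:7693160-7693459 on the minus strand (RefSeq, GRCm38.p6), and the capitals mark TGATGAAA, the core of the element known from the human ASNS promoter, found 23 bases before the gene start. The letters occur on either strand in 1.02% of 32851 promoters of that length, and whether the other strains differ there was not tested.

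Asns: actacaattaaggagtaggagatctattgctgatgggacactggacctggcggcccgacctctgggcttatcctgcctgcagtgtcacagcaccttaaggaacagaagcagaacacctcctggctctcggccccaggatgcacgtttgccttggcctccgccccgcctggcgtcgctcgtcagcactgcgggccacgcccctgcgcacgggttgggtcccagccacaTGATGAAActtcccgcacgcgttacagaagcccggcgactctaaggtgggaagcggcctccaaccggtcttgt

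Glrx, the thiol reductase glutaredoxin, read 7.48, 6.79, 7.502 and 7.31 in C57BL/6J, against 7.95, 8.44 and 8.81 in the others, and was 2.27-fold lower (adjusted p = 5.49e-05). Tnfrsf14, the receptor HVEM that binds BTLA and LIGHT, read 7.93, 7.49, 7.66 and 7.46, against 8.00, 8.73 and 9.29, and was 2.05-fold lower (adjusted p = 0.000148). In both genes the C57BL/6J values lay below those of all 13 other arrays. Snord47, a small nucleolar RNA made from the Gas5 host gene, differed by -1.04 log2 units (adjusted p = 0.00031). C57BL/6J averaged 6.83, against 8.96 in A/J and 7.42 to 7.69 in the other strains, so A/J lay furthest from C57BL/6J and the others nearer. Zbtb32, a transcriptional repressor induced in activated T cells, read 8.95, 8.55, 8.76 and 8.43, against 9.01, 9.33 and 9.59 (difference -0.61 ± 0.11, adjusted p = 0.00307).

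Id2, an inhibitor of E proteins, was lower at T1 (difference -0.79, adjusted p = 0.000196), beside a T0 difference of -0.17 that was not called. The other genes lower without overlap were Inppl1 (-0.89), the lipid phosphatase SHIP2, Cpd (-0.83), Adi1 (-0.82), of methionine salvage, Tmem33 (-0.79), Fabp5 (-0.75), a fatty acid binding protein, Wdfy1 (-0.74), Gbp5 (-0.70), Ttc39b (-0.67) and Eipr1 (-0.63). For Fabp5 and Ttc39b a second probe set gave -0.78 and -0.74. With 16 arrays, Ccnb1ip1 read 4.10, 4.73, 4.24 and 4.23 in C57BL/6J, against 6.24, 6.54 and 6.89 over the 12 others, a difference of -2.23 ± 0.13 (adjusted p = 1.97e-09). Habp4 (-1.17), Bloc1s6 (-1.08), Emp1 (-1.01), Mrpl20 (-0.99), Socs5 (-0.85) and Ttbk2 (-0.81, with a 17-array call lost without C57BL/6J T1 replicate 4) likewise lay below all 12 once that array was set aside.

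Called genes sat next to each other more often than genes in general. Of the 703 called genes, 23.5% had a called gene as the adjacent tested gene, against 12.1% of all genes placed. With 16 arrays these shares were 28.7% and 20.0%. Adjacent related genes may share probe sequence. The longest run of adjacent calls with 17 arrays was in the Ifi200 cluster, whose interferon-inducible proteins bind DNA through HIN domains. It comprised Aim2, the sensor of cytosolic DNA, which was lower, and Ifi206, Ifi214, Ifi213, Ifi209 and Ifi208, which were higher. The Aim2 call (-0.32, adjusted p = 0.0451) was lost without any 1 of 14 of the 17 arrays.

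Of the 10 Ifi200 genes tested, 6 were higher and 1 lower in C57BL/6J with 17 arrays, beside 3.81% and 2.61% of all genes. With 16 arrays 7 were higher and 1 lower, beside 5.62% and 5.24%, and leaving out 1 array left at least 5 higher. The median difference was 1.18, beside -0.01 over all genes. Ifi206 and Ifi213 passed the filter at 5.33 only through their C57BL/6J mean, so the counts and the median partly follow from the filter. Ifi209 read 7.69, 7.96, 7.63 and 7.99 in C57BL/6J, against 4.33, 6.31 and 6.89 over 12 other arrays, a difference of 1.59 ± 0.20 (adjusted p = 4.19e-05) with 16 arrays and 1.45 ± 0.26 (adjusted p = 0.0026) with 17. Ifi206 read 5.32, 5.37, 5.36 and 5.53, against 3.36, 3.96 and 4.45 over 12 other arrays, near or below the median of all values on each. The array labelled Balb/c T1 replicate 2 read 5.73, above all 4 C57BL/6J arrays. The Ifi206 difference was 1.35 at T1 with 17 arrays and 3.02 at T0. Ifi205 had the largest difference of the list, 2.01 ± 0.43 (adjusted p = 0.00833), but its strains were spread out. C57BL/6J read 8.19, 7.38, 9.12 and 8.84, and the means were 5.01 for A/J, 6.04 for the other 2 Balb/c arrays, 6.22 for DBA/2J and 7.55 for 129X1/SvJ. Ifi202b had 8.14, 6.92, 7.93 and 7.75 in C57BL/6J, against 5.27, 7.61 and 9.14, and was not called at T1 (difference 0.36, adjusted p = 0.564).

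The starts of Ifi206 and Ifi214 are shown because these neighbours moved together and share a motif. They are chr1:173491269-173491568 and chr1:173535908-173536207, both on the minus strand (RefSeq, GRCm38.p6). Capitals mark the core of the interferon-stimulated response element, GAAA followed after any 2 bases by GAAA, searched on both strands. It starts 40 bases before the start of Ifi206 and 79 before that of Ifi214. The letters stand in a promoter of 7 of the 10 tested Ifi200 genes and in 3.44% of all 32851 promoters. The first count is by gene, with any promoter entry of the gene counting, and the second is by entry.

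Ifi206: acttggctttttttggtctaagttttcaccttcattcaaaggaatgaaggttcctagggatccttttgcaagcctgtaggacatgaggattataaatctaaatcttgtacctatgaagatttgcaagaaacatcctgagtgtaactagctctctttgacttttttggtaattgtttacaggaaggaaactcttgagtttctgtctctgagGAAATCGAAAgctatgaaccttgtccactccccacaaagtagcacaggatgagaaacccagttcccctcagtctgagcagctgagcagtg
Ifi214: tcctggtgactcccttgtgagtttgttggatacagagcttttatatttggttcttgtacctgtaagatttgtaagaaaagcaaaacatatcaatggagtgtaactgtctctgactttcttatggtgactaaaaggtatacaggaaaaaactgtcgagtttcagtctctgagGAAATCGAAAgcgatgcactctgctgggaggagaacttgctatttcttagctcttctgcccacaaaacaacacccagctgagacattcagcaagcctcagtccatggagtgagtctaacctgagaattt

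Guanylate binding proteins (GBPs) and immunity-related GTPases are interferon-inducible GTPases that attack vacuoles of intracellular pathogens. Of 10 tested, 4 were lower and 2 higher in C57BL/6J with 17 arrays, beside 2.61% and 3.81% of all genes. With 16 arrays 4 were lower and 3 higher, beside 5.24% and 5.62%. The 2 higher with 17 arrays became 0 without C57BL/6J T1 replicate 2 or 4. The median difference of the 10 was -0.36. The 4 lower genes, Gbp5, Gbp7, Gbp3 and Gbp2b, are adjacent in the genome. Gbp8 and Gbp4, from another cluster of the family, were higher by 0.87 and 0.50. The Gbp8 call was lost without C57BL/6J T1 replicate 2 or 4 (highest adjusted p = 0.0556).

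Gbp5, which supports inflammasome assembly, read 8.46, 8.32, 8.11 and 8.03 in C57BL/6J, against 8.71, 8.92 and 9.25 in all 13 other arrays. The groups did not overlap, and Gbp5 was 1.62-fold lower (log2 difference -0.70 ± 0.08, adjusted p = 8.02e-05). Gbp3 read 8.53, 8.23, 8.60 and 8.28, against 8.72, 9.14 and 9.53 over 12 arrays, with differences of -0.70 (adjusted p = 1.63e-05) with 16 arrays and -0.64 (adjusted p = 0.0012) with 17. Gbp7 differed by -0.56 (adjusted p = 0.0139). Gbp2b had a different strain pattern: it read 4.95, 4.81, 4.77 and 5.21 in C57BL/6J and averaged 5.17 in DBA/2J, against 8.66 in A/J, 8.81 in the other 2 Balb/c arrays and 8.24 in 129X1/SvJ. C57BL/6J and DBA/2J thus shared the low level.

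The starts of Gbp5, Gbp7 and Gbp3 are shown because these neighbours were lower together at T1. They are chr3:142496684-142496983, chr3:142530086-142530385 and chr3:142559794-142560093 on the plus strand (RefSeq, GRCm38.p6). Capitals again mark the response element core, here on the opposite strand. It starts 165 bases before the gene start in Gbp5, 53 in Gbp7 and, as overlapping matches, 45 and 39 in Gbp3. All 5 tested members of the list with a promoter entry hold the letters. For comparison, 2 of the 5 hold TTCNNNGAA, the core of the gamma-activated sequence, which is in 8.30% of all promoters. Members were again counted by gene and all promoters by entry. These are letters in a reference sequence and say nothing about binding.

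Gbp5: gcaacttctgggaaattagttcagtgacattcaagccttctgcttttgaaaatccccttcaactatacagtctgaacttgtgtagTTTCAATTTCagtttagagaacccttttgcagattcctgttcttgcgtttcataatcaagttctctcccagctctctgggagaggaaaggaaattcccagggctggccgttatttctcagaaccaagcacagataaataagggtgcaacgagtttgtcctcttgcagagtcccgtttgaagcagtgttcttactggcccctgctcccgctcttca
Gbp7: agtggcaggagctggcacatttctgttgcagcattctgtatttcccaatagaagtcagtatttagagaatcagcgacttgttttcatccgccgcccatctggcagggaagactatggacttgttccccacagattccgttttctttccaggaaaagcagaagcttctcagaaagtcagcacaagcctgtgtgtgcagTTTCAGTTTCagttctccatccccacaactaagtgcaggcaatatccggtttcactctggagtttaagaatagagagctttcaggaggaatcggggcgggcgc
Gbp3: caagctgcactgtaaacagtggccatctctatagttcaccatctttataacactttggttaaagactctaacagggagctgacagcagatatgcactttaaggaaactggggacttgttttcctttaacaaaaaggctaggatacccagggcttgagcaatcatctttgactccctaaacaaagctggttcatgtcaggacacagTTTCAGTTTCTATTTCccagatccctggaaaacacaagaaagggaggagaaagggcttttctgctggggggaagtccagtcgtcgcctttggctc

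In the MHC class II region, H2-Ea, H2-Ob and H2-Eb2 had 1 level in C57BL/6J and 129X1/SvJ and another in the other strains, whereas H2-Ab1 did not follow that split. C57BL/6J and 129X1/SvJ are known to share an H2 haplotype with a deleted start of H2-Ea, the alpha chain of the I-E molecule. H2-Ea read 4.61, 4.42, 5.12 and 5.16 in C57BL/6J and averaged 4.78 in 129X1/SvJ, against 10.14 in A/J, 11.38 in the other 2 Balb/c arrays and 11.85 in DBA/2J. The contrast gave -4.61 ± 0.20 (adjusted p = 9.85e-11), although 129X1/SvJ was as low as C57BL/6J. In the other direction, H2-Ob, a chain of the peptide-loading inhibitor H2-O, read 8.42, 8.30, 8.29 and 8.09 in C57BL/6J and averaged 8.39 in 129X1/SvJ. Its means were 7.01, 7.15 and 7.14 in A/J, the other 2 Balb/c arrays and DBA/2J. H2-Eb2 showed the same split, with 6.24, 6.03, 6.54 and 6.16 in C57BL/6J, 6.37 on average in 129X1/SvJ and 4.79 to 5.10 in the other strain means. Of the 10 class II genes tested, 3 were higher and 1 lower with 17 arrays, beside 3.81% and 2.61% of all genes. With 16 arrays 3 were higher and 2 lower, beside 5.62% and 5.24%. H2-Ab1 was among the higher ones by 0.60 (adjusted p = 0.0394), a call lost without any 1 of 12 of the 17 arrays, controls included (highest adjusted p = 0.178). It averaged 10.58 in C57BL/6J, beside 10.65 in 129X1/SvJ and 10.40 in DBA/2J, against 9.27 in A/J and 9.79 on the other 2 Balb/c arrays.

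Class I genes and their peptide transporters gave 3 lower calls of 16 tested with 17 arrays, beside 2.61% of all genes. H2-T24, a nonclassical class I gene, read 6.65, 6.14, 6.75 and 6.65 in C57BL/6J, against 6.44, 7.55 and 8.07 in the others (difference -0.84 ± 0.20, adjusted p = 0.0172), and its call was lost without C57BL/6J T1 replicate 2. Tap2 and Tap1, which carry peptides to class I molecules, differed by -0.34 and -0.33, with calls lost without any 1 of 10 and 13 arrays. Of 29 type I interferon response genes, only Ifit1 was called at T1, beside 6.43% of all genes. Its difference was -0.59 (adjusted p = 0.0414), and its call was lost without any 1 of 9 arrays.

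Of 18 regulatory T cell genes tested at T1, 7 were lower in C57BL/6J, none was higher and 11 did not pass the test with 17 arrays, where 2.61% of all genes were lower. With 16 arrays 8 were lower, beside 5.24% of all genes, and 1, Nrp1, was higher. The median difference was -0.29 in both. Foxp3, the factor that defines regulatory T cells, read 7.28, 7.07, 7.30 and 6.96 in C57BL/6J, against 7.35, 7.87 and 8.34 in all other arrays. The groups did not overlap, and Foxp3 was 1.52-fold lower (log2 difference -0.61 ± 0.13, adjusted p = 0.00744). At T0 its difference was similar in size but not called (-0.49 ± 0.17, adjusted p = 0.0723), and its response difference was -0.11 (adjusted p = 0.898). Gpr83, a receptor enriched in regulatory T cells, read 6.03, 5.65, 6.15 and 5.59, against 5.69, 6.66 and 7.08, a difference of -0.66 (adjusted p = 0.0144) that was lost without C57BL/6J T1 replicate 2 or 4 (highest adjusted p = 0.0733).

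The other members called were Capg (-0.56), Il10 (-0.57), Tigit (-0.57), Il2ra (-0.50) and Ctla4 (-0.39), the last lost without C57BL/6J T1 replicate 2, 3 or 4. Tigit, an inhibitory receptor, read 8.38, 7.99, 8.14 and 8.35, against 8.47, 8.82 and 9.29, without overlap. Ikzf2 (-0.26, adjusted p = 0.052), Tnfrsf18 (-0.23) and Izumo1r (-0.01) were not called with 17 arrays. The mean over the 18 genes was 7.51 to 7.87 in C57BL/6J arrays, against 7.81 to 8.03 in the others. Leaving out 1 T1 array at a time gave 5 to 10 lower calls, the 5 without C57BL/6J T1 replicate 2. At T0 none of the 18 was called lower and 3 were called higher, beside 3.78% and 6.83% of all genes, with a median difference of -0.02. Il2ra, Ctla4, Tigit and Il10 are also induced on activated T cells, and the part of cell composition in the result was not tested.

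Activation receptors overlapped that list. Of 24 tested, 6 were lower and 1 higher with 17 arrays, beside 2.61% and 3.81% of all genes. With 16 arrays 9 were lower and 3 higher, beside 5.24% and 5.62%. The median difference with 17 arrays was -0.15. Only 3 were lower without C57BL/6J T1 replicate 2, 3 or 4. Il2ra, the CD25 chain of the interleukin-2 receptor, read 10.66, 10.33, 10.18 and 10.12, against 10.52, 10.85 and 10.995. Cd44, an adhesion receptor of activated and memory T cells, read 9.06, 9.04, 9.20 and 8.92, against 9.16, 9.58 and 9.73. These groups overlapped only at their edges, with adjusted p = 0.00249 for Il2ra and 0.000816 for Cd44. Cd69 differed by -0.26 and was not called with 17 arrays (adjusted p = 0.0556), though it was with 16 (adjusted p = 0.048). Cd28, the costimulatory receptor, was the member higher with 17 arrays (0.34, adjusted p = 0.0425), a call lost without any 1 of 13 arrays (highest adjusted p = 0.169). Cd4 itself did not pass the test (0.14 ± 0.13, adjusted p = 0.61).

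Most helper T cell cytokines did not pass the test at T1. Il2 read 10.90, 10.86, 10.38 and 10.76 in C57BL/6J, against 10.15, 10.60 and 11.53 in the other strains (0.06 ± 0.16, adjusted p = 0.878). Ifng differed by 0.01 ± 0.13 (adjusted p = 0.967), Tnf by -0.12 ± 0.08 (adjusted p = 0.405) and Il4 by -0.26 ± 0.18 (adjusted p = 0.433). Of 25 cytokines, 3 were higher and 2 lower in both fits, and only 1 was higher without C57BL/6J T1 replicate 3 or 4. Over all genes, 3.81% were higher and 2.61% lower with 17 arrays, and 5.62% and 5.24% with 16. Tnfsf11, the ligand RANKL, read 10.30, 10.53, 9.94 and 9.97 in C57BL/6J, against 8.35, 8.99 and 9.30 over 12 arrays. It was 2.55-fold higher with 16 arrays (adjusted p = 3.07e-07) and 2.34-fold higher with 17 (adjusted p = 0.000774), where the array labelled Balb/c T1 replicate 2 read 10.02.

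Il17f, an interleukin-17 family cytokine, was the cytokine with the largest deficit among those called. It read 8.67, 8.13, 8.07 and 8.08 in C57BL/6J, against 8.55, 9.33 and 10.39, a 2.17-fold lower level (adjusted p = 0.00212). The strains formed a range: A/J averaged 8.70, near C57BL/6J, and DBA/2J averaged 9.92. Il10 read 10.02, 9.82, 9.91 and 9.69, against 9.94, 10.47 and 11.02 (difference -0.57 ± 0.12, adjusted p = 0.00878). Il3 was higher by 0.77 (adjusted p = 0.0258), but C57BL/6J averaged 8.92, beside 8.98 on the other 2 Balb/c arrays and 9.03 in DBA/2J (the array labelled Balb/c T1 replicate 2 read 9.81), and only A/J (7.20) and 129X1/SvJ (7.14) were lower. The Il3 call was lost without C57BL/6J T1 replicate 1, 3 or 4 (highest adjusted p = 0.0898). Lif was the other member higher, by 0.37 (adjusted p = 0.0251). Chemokines gave 3 higher calls of 15 with 17 arrays, beside 3.81% of all genes. They were Cxcl9 (1.28, adjusted p = 0.00689), Ccl5 (0.63, adjusted p = 0.00609) and Ccl9 (0.80, adjusted p = 0.0499), the last lost without any 1 of 13 arrays. With 16 arrays 3 chemokines were higher and 2 lower, beside 5.62% and 5.24% of all genes. Ccl20 was among those lower (-0.57, adjusted p = 0.0379).

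**Figure D3:**
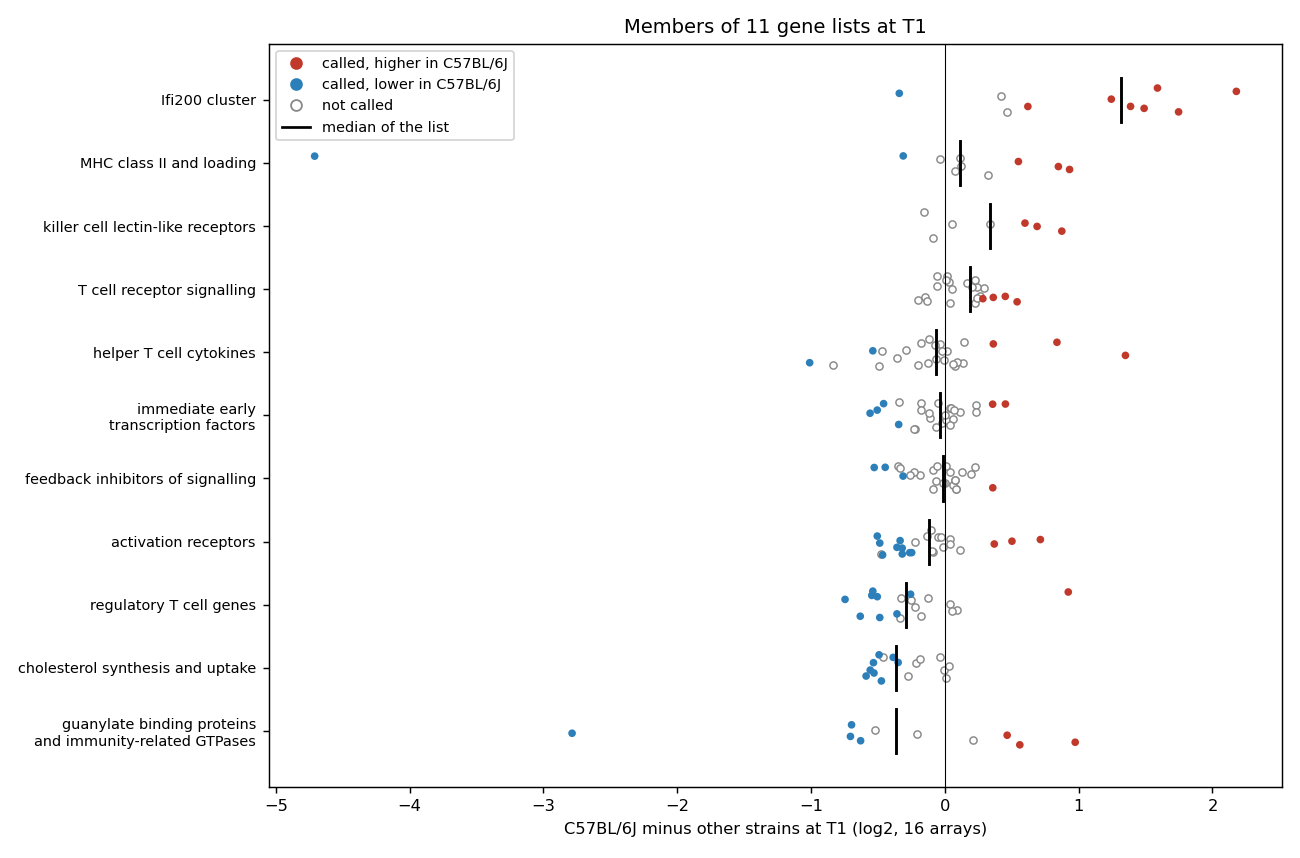
Difference at T1 between C57BL/6J and the other strains (x axis, log2, 16 arrays) for each member of 11 gene lists (rows), with filled points for called genes and a bar at the list median. The Ifi200 median lies far to the right, and the regulatory T cell (-0.29), cholesterol (-0.37) and guanylate binding protein (-0.37) medians lie left of 0.

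Of 16 genes of cholesterol synthesis and uptake, 7 were lower in C57BL/6J with 17 arrays, beside 2.61% of all genes, and 8 with 16, beside 5.24%. None was higher, 9 and 8 did not pass the test, and the median differences were -0.35 and -0.37. Sqle, squalene epoxidase, read 8.94, 8.95, 8.63 and 8.38 in C57BL/6J, against 8.95, 9.25 and 9.80 over 12 arrays. The array labelled Balb/c T1 replicate 2 read 8.68, within the C57BL/6J range. With 17 arrays, that array included, the Sqle difference was -0.55 ± 0.12 (adjusted p = 0.00791). Hmgcs1, which makes the substrate of HMG-CoA reductase, read 9.89, 9.94, 9.64 and 9.46, against 9.62, 10.24 and 10.87 over all 13. Idi1 (-0.51), Hmgcs1 (-0.51), Msmo1 (-0.51), Fdft1 (-0.45), Sc5d (-0.45) and Nsdhl (-0.35) were the other members called. Mvd (-0.004), Mvk (0.005), Pmvk (0.03) and Srebf2 (0.03) differed least with 17 arrays. The order of strains was graded, since for Hmgcs1 the means were 9.73 in C57BL/6J, 9.81 in A/J, 10.23 in the other 2 Balb/c arrays, 10.40 in DBA/2J and 10.71 in 129X1/SvJ. Only 2 members were called without C57BL/6J T1 replicate 3 and 2 without replicate 4, whose arrays read lowest for Sqle and Hmgcs1. At T0, 5 members were lower and none higher, beside 3.78% and 6.83% of all genes. None of the 13 members with a promoter entry held the response element core, and 1 held TCACNCCAC, a sterol regulatory element core present in 1.24% of all promoter entries.

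Other growth lists gave few calls with 17 arrays. Of 21 proliferation genes, 1 was lower with 17 arrays, beside 2.61% of all genes. It was Ccnd2, cyclin D2, which differed by -0.38 (adjusted p = 0.0109). With 16 arrays 5 were lower and 1 higher, beside 5.24% and 5.62%. The median differences of the list were -0.26 with 17 arrays and -0.29 with 16, and 17 of the 21 genes lay below 0 in both fits. No ribosome biogenesis, glycolysis or quiescence gene was called with 17 arrays, beside the 6.43% of all genes. Of 22 genes of T cell receptor signalling, 1 was higher with 17 arrays and 4 with 16, beside 3.81% and 5.62% of all genes. That 1 was Cd3d, a CD3 chain, which read 8.78, 8.74, 8.78 and 8.75, against 7.505, 8.16 and 8.87 (adjusted p = 0.017), and its call was lost without C57BL/6J T1 replicate 2 or 3 (highest adjusted p = 0.0554). Of 7 killer cell lectin-like receptor genes, 3 neighbours, Klri2 (0.96), Klrc1 (0.68) and Klrc2 (0.60), were higher in both fits, beside 3.81% and 5.62% of all genes. Only 1 of them was called without C57BL/6J T1 replicate 3 or 4 or DBA/2J T1 replicate 3. The Klri2 call was lost without any 1 of 13 of the 17 arrays (highest adjusted p = 0.228) and the Klrc1 call without any 1 of 5 (highest adjusted p = 0.134). The Klrc2 call was kept in each of these fits. However, Klrc2 read at most 5.26 in the other strains, below the filter limit of 5.33, and was thus tested only through its C57BL/6J mean. Of 23 genes of the list on the array, 7 passed the filter, so the share called higher partly follows from the filter. Other lists gave 1 or 2 calls each with 17 arrays, where 6.43% of all genes were called. Sh2d1a, the adaptor SAP of SLAM family receptors, read 6.68, 6.67, 6.79 and 6.75 in C57BL/6J, against 4.90, 5.99 and 6.79 in the others, and was the 1 member of 9 called (0.80 ± 0.16, adjusted p = 0.00444). Slfn9 was the 1 Schlafen gene of 8 called (-0.74, adjusted p = 0.000475). Of 16 p53 and apoptosis genes, Sesn3, a sestrin, was higher by 0.47 (adjusted p = 0.00512) and Bcl2, which restrains apoptosis, differed by -0.36 (adjusted p = 0.0331, lost without any 1 of 5 arrays). Gimap4 was the 1 Gimap gene of 8 called with 17 arrays (0.35, adjusted p = 0.0379, lost without any 1 of 14 arrays). Dnaja1, a heat shock co-chaperone, was the 1 of 14 heat shock genes called (-0.36, adjusted p = 0.0186, lost without C57BL/6J T1 replicate 2 or 3).

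Apobec3, an antiviral cytidine deaminase known to differ between mouse strains, read 6.81, 6.19, 7.15 and 6.55, against 5.09, 5.60 and 6.39, and was higher by 1.05 (adjusted p = 0.000475). A second Apobec3 probe set gave only 0.12. Nnt, of which C57BL/6J is known to carry a deleted form, read 6.35, 6.37, 6.39 and 6.38, against 6.18, 6.43 and 6.96, and was not called (-0.11, adjusted p = 0.622).

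Of 6 probe sets named for the miR-17 cluster, 4 were lower with 17 arrays, beside 2.61% of all genes. They were chosen for description after their values were seen. The cluster is a single primary transcript from which miRNAs that promote lymphocyte growth are cut. Whether these probe sets report the hairpins or the primary transcript is not known here. Their mature sequences are shown to let the members be told apart, with the seed (bases 2 to 8) in capitals, grouped by seed and all from chromosome 14, plus strand (RefSeq, GRCm38.p6).

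miR-17-5p: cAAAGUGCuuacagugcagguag
miR-20a-5p: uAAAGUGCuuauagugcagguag
miR-18a-5p: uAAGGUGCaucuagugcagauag
miR-19a-3p: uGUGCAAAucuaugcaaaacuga
miR-19b-3p: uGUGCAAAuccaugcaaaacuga

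Mir19a differed by -0.42 (adjusted p = 0.0219), Mir18 by -0.36 (adjusted p = 0.00833), Mir20a by -0.30 (adjusted p = 0.0251) and Mir19b-1 by -0.25 (adjusted p = 0.0386) with 17 arrays. Mir17 (-0.27, adjusted p = 0.0605) and the host gene Mir17hg (-0.32, adjusted p = 0.0647) were not called. With 16 arrays Mir17 was called too (adjusted p = 0.043). The 3 seed groups did not separate by size of difference. C57BL/6J was not alone at the low end: Mir19a averaged 8.69 in C57BL/6J and 8.56 in the other 2 Balb/c arrays, against 9.11 in A/J, 9.26 in 129X1/SvJ and 9.52 in DBA/2J. None of the 6 was called at T0.

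Stimulated and unstimulated cells shared part of the strain difference. The same contrast on the T0 arrays called 1160 genes (10.6%), 747 higher (6.83%) and 413 lower (3.78%). Of the 703 T1 calls, 284 were also called at T0 with the same sign, which is 40.4% of the T1 calls and 24.5% of the T0 calls. Arrays of both times come from the same strains, with the same replicate numbers. With opposite sign, 11 genes were called at both times with 17 arrays and 19 with 16. Of these, 8 and 16 were higher in C57BL/6J at T0 and lower at T1, among them Gbp5, Gbp7, Cd274, Dusp4 and Tap1, and 3 in each fit ran the other way, Cd28, Klhl6 and Spn. Klhl6 and Spn, the sialoglycoprotein CD43, were named after their values were seen.

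**Figure D4:**
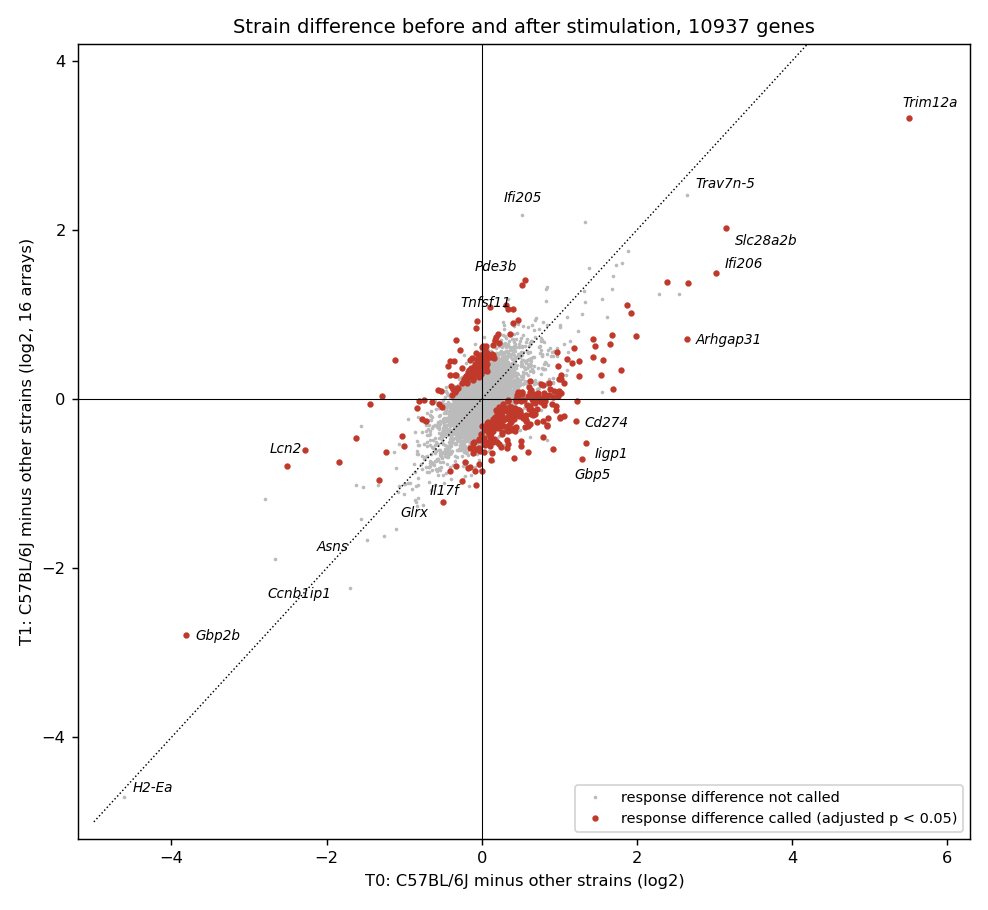
C57BL/6J minus other strains at T0 (x axis) and at T1 (y axis, 16 arrays), log2, for 10937 genes, with genes whose response difference was called in red and the dotted line where both differences are equal. Trim12a lies at 5.51 and 3.33, H2-Ea at -4.61 and -4.71, and Gbp5 in the lower right quadrant at 1.29 and -0.71.

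Whether the response from T0 to T1 differed was tested directly, as the T1 difference minus the T0 difference over all arrays. This called 284 genes (2.6%), 84 higher (0.768%) and 200 lower (1.83%). With the array labelled Balb/c T1 replicate 2 left out it called 384 (3.51%), 123 higher (1.12%) and 261 lower (2.39%). With strain and replicate number as a block, 424 (3.88%) were called over all arrays, 127 higher (1.16%) and 297 lower (2.72%). Without that array the block gave 630 (5.76%), 210 higher (1.92%) and 420 lower (3.84%). Response differences of single genes are given over all arrays and without the block.

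Gbp5 had the clearest reversal. At T0 it read 10.08, 9.45, 9.56 and 9.27 in C57BL/6J, against 7.03, 8.53 and 9.80 in the other strains, a difference of 1.29 ± 0.15 (adjusted p = 2.36e-05). The response difference was -1.99 ± 0.18 (adjusted p = 2.36e-08). At T0 C57BL/6J averaged 9.59, against 7.28 in DBA/2J, 7.52 in 129X1/SvJ, 8.83 in A/J and 9.59 in Balb/c, so the excess was over DBA/2J, 129X1/SvJ and, by less, A/J, and not over Balb/c. At T1 all 4 other strain means lay between 8.82 and 9.17, above every C57BL/6J array. Iigp1, an immunity-related GTPase, differed by 1.34 at T0 and -0.52 at T1, and its response difference was -1.86 (adjusted p = 0.000174). At T0 the list of GBPs and immunity-related GTPases had 8 of 10 members higher and 1 lower, beside 6.83% and 3.78% of all genes, with a median difference of 1.06.

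Cd274, the inhibitory ligand PD-L1, read 10.51, 10.53, 10.48 and 10.36 in C57BL/6J at T1, against 10.55, 10.72 and 10.95. The groups did not overlap but the difference was small (-0.26 ± 0.07, adjusted p = 0.0378), and the call was lost without any 1 of 11 arrays (highest adjusted p = 0.118). At T0 it read 10.18, 9.81, 9.95 and 9.82, against 8.06, 8.58 and 9.73, and the response difference was -1.47 ± 0.14 (adjusted p = 8.89e-08). The T1 call of Dusp4 was lost without C57BL/6J T1 replicate 2 or 4. Dusp4, a phosphatase that switches off MAP kinases, read 9.79, 9.41, 9.82 and 9.38 at T1, against 9.68, 10.02 and 10.29, and 7.78, 7.88, 8.04 and 8.10 at T0, against 6.64, 7.17 and 7.70. Its response difference was -1.21 ± 0.15 (adjusted p = 1.31e-05).

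Of 26 immediate early transcription factors, 13 were higher and none lower in C57BL/6J at T0, beside 6.83% and 3.78% of all genes, with a median difference of 0.49. At T1, 2 were higher and 1 lower with 17 arrays, beside 3.81% and 2.61% of all genes. With 16 arrays 2 were higher and 4 lower, beside 5.62% and 5.24%. Fosl2, an AP-1 subunit, was 1 of those higher (0.34, adjusted p = 0.03), a call lost without C57BL/6J T1 replicate 2 or 3, DBA/2J T1 replicate 3 or 129X1/SvJ T1 replicate 4. The response difference was called in 11, all negative, and in 13 with that Balb/c array set aside, beside negative calls in 1.83% and 2.39% of all genes. Nr4a2, an orphan nuclear receptor, read 10.73, 11.11, 10.96 and 11.11 in C57BL/6J at T1, against 10.17, 10.52 and 10.83, and 7.75, 8.39, 8.27 and 8.59 at T0, against 5.96, 6.99 and 8.34. Of 25 feedback inhibitors, 14 were higher at T0, beside 6.83% of all genes. At T1 with 17 arrays 2 of them, Dusp4 and Rgs16, were lower, beside 2.61% of all genes. Ifng read 6.51, 7.18, 7.04 and 7.04 in C57BL/6J at T0, against 5.06, 6.10 and 7.11, and its response difference was -0.97 ± 0.21 (adjusted p = 0.00723). At T0, DBA/2J and 129X1/SvJ averaged 5.27 and 5.35 for Ifng, and A/J and the Balb/c arrays 6.58 and 6.61, so the low strains were again the first pair.

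**Figure D5:**
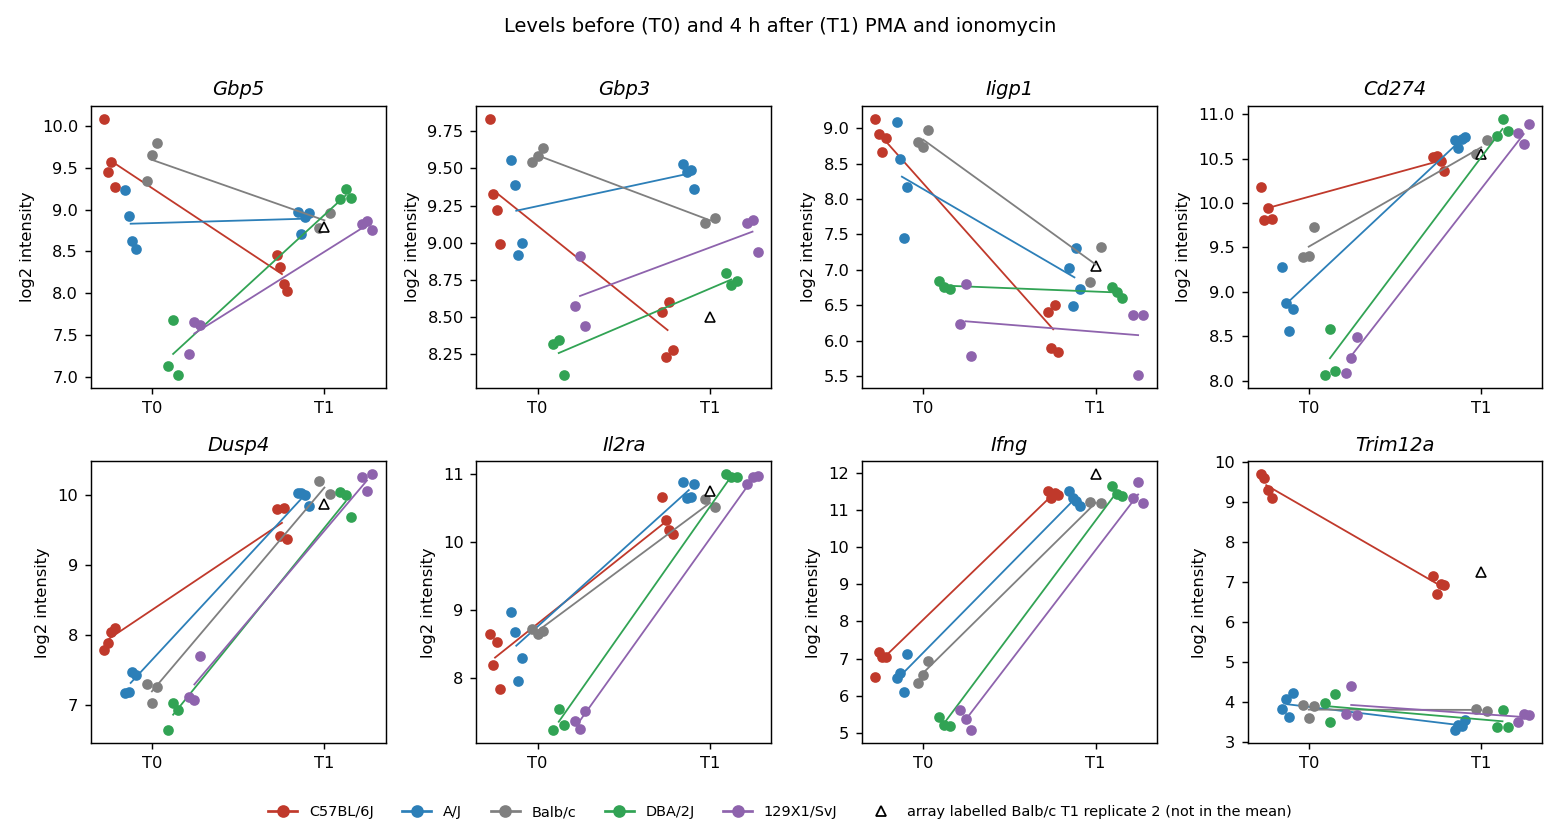
Log2 intensity of 8 genes at T0 and T1, with each point 1 array, coloured by strain, and lines joining strain means. The array labelled Balb/c T1 replicate 2 is an open triangle and is not in the mean. For Gbp5 and Cd274 the C57BL/6J points are the highest or near the highest at T0 and the lowest at T1, and for Trim12a they lie above the other strains at both times, with the triangle at their level at T1.

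Other genes kept their direction while the difference shrank. Trim12a read 9.69, 9.59, 9.28 and 9.09 in C57BL/6J at T0, against 3.50, 3.91 and 4.42, and its response difference was -2.47 (adjusted p = 0.00175). That fit includes the array labelled Balb/c T1 replicate 2, which read 7.24 for Trim12a, so the size depends partly on it. Arhgap31, a GTPase activating protein for Rac1 and Cdc42, read 8.21, 8.28, 8.37 and 8.14 at T0, against 5.26, 5.65 and 5.98, and 7.09, 7.37, 7.31 and 7.002 at T1, against 6.33, 6.50 and 7.14. Its response difference was -1.996 ± 0.15 (adjusted p = 5.25e-10). Fewer genes had a positive response difference. Prag1 (0.95), Pde3b (0.78) and Arhgap29 (0.76) were among them and were higher in C57BL/6J at T1. Prag1 and Arhgap29 increased more on stimulation in C57BL/6J than in the other strains, whereas Pde3b, which read 10.05 on average in C57BL/6J at T0 and 8.58 at T1, decreased less. The T1 call of Prag1 was lost without C57BL/6J T1 replicate 2 or 3.

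The largest positive response differences included the granulocyte genes Lcn2, Ltf, Camp and S100a9, which were lower in C57BL/6J at T0. Lcn2, a neutrophil granule protein, read 5.24, 4.85, 6.11 and 5.91 at T0, against 6.37, 8.39 and 9.06, and S100a9 read 6.13, 5.83, 6.64 and 6.16, against 6.78, 7.96 and 8.66. Neither was called at T1. All 5 neutrophil markers tested were lower at T0, beside 3.78% of all genes, and 4 of them gave a positive response difference, beside 0.768%. In C57BL/6J T1 arrays all 14 neutrophil markers on the array lay below 5.33 in the mean, and their mean level was 4.34 to 4.83, against 4.33 to 5.399 in the other strains. The 5 tested thus passed the filter only through other strains, where they were higher. Their count of lower calls partly follows from the filter. Erythroid markers averaged 6.61 to 7.92 over 13 genes in C57BL/6J T1 arrays, against 5.93 to 8.67. With 17 arrays 1 of the 13 was lower, the transferrin receptor Tfrc, which activated T cells also express (-0.35, adjusted p = 0.033, lost without any 1 of 7 arrays). With 16 arrays 7 of the 13 were lower. Over all genes, 2.61% were lower with 17 arrays and 5.24% with 16. B cell markers averaged 6.27 to 6.75, against 6.19 to 6.91, and the 15 CD8 T and NK cell markers 5.39 to 5.99, against 4.96 to 5.80. Cd8b1 was higher by 0.42 (adjusted p = 0.0139), a call lost without C57BL/6J T1 replicate 3 or 4, and 7 of the 15, among them Gzmk, Klrk1 and Ncr1, lay below 5.33. The part of these cells in the strain differences was not tested.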

How the data were processed

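Per the submitters' processing notes, the authors ran RMA on Affymetrix arrays. The deposited numbers are log2 intensities for each probe set, and neither RMA's version nor the probe set definitions are stated. Of 35556 probe sets, 21789 have 1 gene symbol in the platform table, 1621 several and 12146 none. Each of 19938 genes was read from its brightest probe set on average (999 have several), and 21698 identifiers matched RefSeq's GRCm38.p6 gene table. Genes stayed in the tests if at least 1 of the 5 T1 strain means reached 5.33, the median of all T1 values, which left 10937 and set 9001 aside.

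The contrasts were fitted with limma 3.58.1 in R 4.3.3 (lmFit, eBayes) on 17 T1, 17 T0 or all 34 arrays, with no covariates and Benjamini-Hochberg adjustment over the genes kept. The scripts were tested on simulated data. The number of arrays limits the precision, and no depth applies to arrays.

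Members and gene lists were chosen with earlier results of these data known, so they are no independent support. Genes are named by rule: the 15 largest positive and 15 largest negative T1 differences without overlap, the 8 largest response differences in each direction, up to 4 called members of each list, and Il2, Ifng, Tnf, Il4, Cd69, Il2ra, Cd4, H2-Ea and Nnt. Unnamed transcripts were passed over. A gene that this rule names is not reported here. The first part of the rule was repeated on 16 arrays, leaving out Balb/c T1 replicate 2, an alternative chosen after seeing the data. Other members were named after their values were seen.

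Same-numbered T1 arrays of different strains had deviations correlated at -0.18 to 0.39 (median 0.12, 15 of 27 pairs over 0.1). Since not every pair passed 0.1 and the labels name no shared batch, the number was not taken as a pairing, though some pairs deviated together. T0 and T1 arrays of the same strain and number correlated at -0.07 to 0.50 (median 0.27, 14 of 17 pairs over 0.1). The main response fit did not use this pairing, and the counts with it as a block are given beside that fit. Alternatives were the dim gene filter, quantile and median scaling, pooled strains, probe set means, trended variance, array weights, a replicate block, a shared spread and each array left out.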

Additional observations from a re-analysis of the deposited data

Results flagged for a closer look

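The response to stimulation differed between C57BL/6J and the other strains for 42 named genes, by limma's test of the T1 difference minus the T0 difference (log2, adjusted p below 0.05). That difference was negative for Trim12a (-2.47), Arhgap31 (-1.996), Gbp5 (-1.99), Iigp1 (-1.86), Ifi206 (-1.67), Ifit1 (-1.51), Oasl2 (-1.50), Cd274 (-1.47), Il4 (-1.32), Slc28a2b (-1.28), Dusp4 (-1.21), Gbp3 (-1.06) and Il17f (-1.04). It was also negative for Ifng (-0.97), Cd69 (-0.84), Il2ra (-0.83), Apobec3 (-0.82), Nr4a2 (-0.77), Tap1 (-0.76), Rgs16 (-0.74), Fabp5 (-0.72), Glrx (-0.69), Tigit (-0.66), Tmem33 (-0.64), Id2 (-0.61), Ier2 (-0.60), Tap2 (-0.54), Wdfy1 (-0.52), Ccnd2 (-0.50) and Ctla4 (-0.48). It was positive, which includes a smaller decrease in C57BL/6J as for Pde3b, for Lcn2 (1.82), Ltf (1.77), Ifi202b (1.47), Camp (1.41), Prg2 (1.36), S100a9 (1.198), Prelid2 (1.04), Prag1 (0.95), Pde3b (0.78), Arhgap29 (0.76), Cd28 (0.60) and Rnf144a (0.40).

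In some groups of 4 arrays, 1 array stood apart by Dixon's test, which chance does in about 1 in 20 groups. Among C57BL/6J T1 arrays these were single values for Camp (5.05), Il17f (8.67), H2-T24 (6.14) and Bcl2 (7.77). Among A/J T1 arrays they were single values for Il10 (10.07), Nr4a2 (10.83), Dusp4 (9.85), Bcl6 (6.99), Ifi205 (3.95) and Zfp948 (5.19).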

How the results depend on the processing

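Of 100 named genes called at T1 with 17 arrays, 71 were called without any 1 of the T1 arrays and 29 lost the call without 1 or more. Leaving out 1 array gave 387 to 1188 T1 calls, of which 215 to 615 were higher and 155 to 573 lower, and the highest counts came when Balb/c T1 replicate 2 was the one left out. The number of T1 calls was 1217 with the spread taken from all 34 arrays, 659 higher and 558 lower, and array weights gave 627 higher. A replicate block gave 617 T1 calls, 328 higher and 289 lower, and 690 genes lower at T0. For the response, higher calls numbered 136 after quantile normalization, 127 with the replicate block and 48 to 123 with 1 array left out. The sign of a small difference at T1 turned for Camp (0.0311 without C57BL/6J T1 replicate 1, range -0.0637 to 0.0311), Prg2 (-0.103 with array weights, -0.145 and -0.0115 without C57BL/6J T1 replicates 3 and 4, range -0.145 to 0.334) and Il4 (0.00586 without C57BL/6J T1 replicate 2, range -0.381 to 0.00586). Ifng ranged from -0.0198 to 0.0787 and turned negative without A/J T1 replicate 5, Balb/c T1 replicate 1 or 4, C57BL/6J T1 replicate 1 or 129X1/SvJ T1 replicate 4. In these cases the cause was not tested. Dim probe sets, whose values lie near or below the median of all values, limit what can be said of genes such as Trim12a and H2-Ea in the low strains.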
